A study of Mus musculus with 6 samples.

Results

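The 38 genes described here encode proteins that sense DNA damage, signal it and repair it, and all 38 were found by gene name among the 55995 features of a table of gene levels from mouse gastrocnemius, a calf muscle in which fast-twitch fibres predominate. The radiotherapy group held 3 libraries, from NSG mice whose MDA-MB-231 tumour received 10 Gy of local X-rays (6 MV, 6 Gy per minute, 1 dose) at a size of about 800 mm3, with the muscle of the other side collected 3 days after the dose. The control group held 3 libraries from tumour-bearing mice of the same strain that received no irradiation. In both groups the tumours were grown from WT MDA-MB-231 cells, a human breast cancer line, placed with Matrigel under the skin of the left flank. Both groups are NOD/SCID/IL2Rγ-null, so the controls also carry the scid mutation of Prkdc and a null allele for an interleukin receptor chain. The scid mutation shortens a kinase that acts in the joining of broken DNA ends. The scid mutation leaves such mice without mature T and B cells, and the lost receptor chain leaves them without NK cells. A table of gene levels cannot show the scid mutation itself. The labels give no age, no dose received by the muscle, and neither tumour size nor day of collection for the controls, so these cannot be told apart from irradiation. They do not say that each library came from its own mouse, so the p-values describe spread between libraries that may be technical. With 3 libraries a side, the smallest p that an exact two-sided permutation test can give for 1 gene is 0.1.

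DNA damage is handled by several pathways that divide the work by lesion. Double-strand breaks are detected by the Mre11-Rad50-Nbn complex and the kinases ATM, ATR and DNA-PK, and are then joined directly by non-homologous end joining or copied from a sister chromatid by homologous recombination, which needs a replicated genome. Oxidised and deaminated bases and single-strand breaks are mended by base excision repair, bulky lesions by nucleotide excision repair, and replication errors by mismatch repair. Muscle fibres are post-mitotic, so end joining and the excision pathways are the routes open to most of their nuclei, and ribonucleotide reductase with the Rrm2b subunit supplies deoxynucleotides for repair and for mitochondrial DNA outside S phase.

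The libraries themselves differed in ways that touch the results. Myofibre markers were abundant throughout, with the 12 markers summing to between 102361 and 176349 TPM in the radiotherapy libraries and between 119350 and 136066 TPM in the control libraries. TPM, a transcript level on a fixed total, scales each gene for length and for the total of its library, so a few very abundant transcripts lower the values of all others. The 20 most abundant features took 50.5%, 52.1% and 30.3% of the total in radiotherapy replicates 1, 2 and 3, against 37.8%, 33.0% and 42.6% in control replicates 1, 2 and 3. Radiotherapy replicate 3 stood apart, since its log2 levels over the tested features correlated with those of the other two radiotherapy libraries at 0.85, against 0.968 between those and 0.938 to 0.950 among the controls. Its 7 neutrophil markers, all above 0 in it although Ly6g was listed at 0 in radiotherapy replicates 1 and 2, summed to 2771 TPM, against 10.4 and 17.3 TPM in radiotherapy replicates 1 and 2 and 69.6 to 172 TPM in the controls, and its 7 macrophage markers summed to 370 TPM, against 61.5 to 189 TPM in the other 5 libraries. The 6 satellite cell markers summed to 9.03 to 18.3 TPM in the radiotherapy libraries, against 31.4 to 89.5 TPM in the controls, with Myod1 making up much of the control level and the defining marker Pax7 at no more than 0.14 TPM anywhere. Of the 8 lymphocyte markers, all except Ighm stayed at or under 0.25 TPM in every library. Ighm, the immunoglobulin M heavy chain, reached 44.8, 28.2 and 0.60 TPM in the radiotherapy libraries and 1.48, 0.50 and 0.40 TPM in the controls. The part of these differences in the repair gene results was not tested, and in bulk muscle fewer cells of a type and less RNA per cell cannot be told apart.

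Repair genes were mostly expressed at low levels in this muscle. Of the 38 members, 7 averaged less than 1 TPM over the 6 libraries (Mdc1, Msh6, Rad50, Lig4, Atm, Prkdc and Brca1), 23 averaged between 1 and 10 TPM, and 8 averaged at least 10 TPM. Above 0 in every library were 37 of the 38, all but Brca1. The abundant members belonged to the excision pathways, apart from Xrcc6, which encodes a subunit of Ku. Xrcc5, the other Ku gene, averaged 4.4 TPM. Polb, the gap-filling polymerase of base excision repair, averaged 85.0 TPM, and Ddb1, the adaptor that links damage recognition to the CUL4 ubiquitin ligase, averaged 81.0 TPM. Ercc1, part of the nuclease that cuts on the 5′ side of a bulky lesion, averaged 38.1 TPM, and behind it came Apex1, Xrcc1, Xrcc6, Xpa and Parp1 at 19.8, 17.7, 16.5, 14.3 and 12.3 TPM. The kinases of the damage response lay far below, with Atr at 1.77 ± 0.416 TPM in radiotherapy and 1.46 ± 0.465 TPM in control muscle (SD, n = 3 each).

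**Figure D1:**
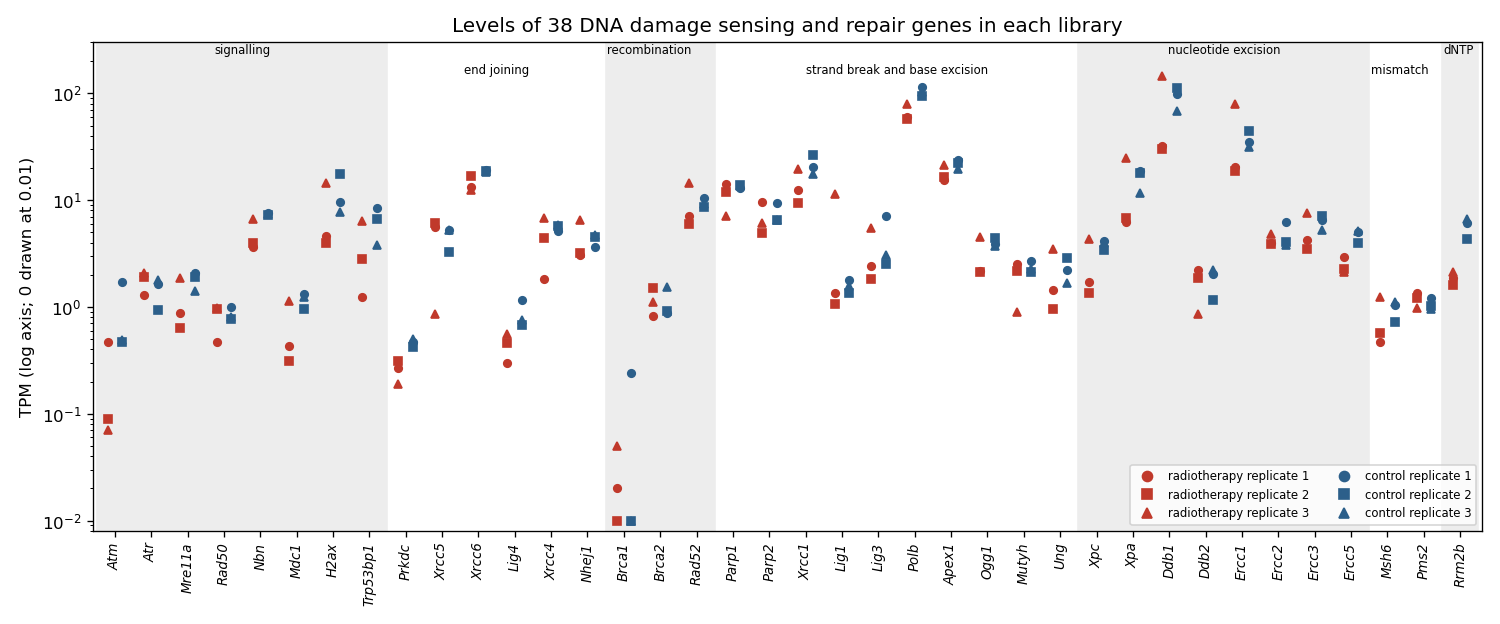
TPM of each of the 38 repair genes (log axis, 0 drawn at 0.01) in the 6 libraries, radiotherapy in red to the left of control in blue, ordered by pathway, with 1 symbol per replicate. Polb, Ddb1 and Ercc1 stand at the top, Brca1 at the bottom, and the radiotherapy triangle, replicate 3, often lies above the red circle and square.

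No repair gene passed the test between radiotherapy and control muscle, although most lay lower in radiotherapy muscle, as most genes of the table did. Differences are radiotherapy minus control on the log2(TPM + 1) scale, which understates the change of low genes, and were tested with limma over the 11938 features that averaged at least 1 TPM, 31 of the 38 members among them. At an adjusted p under 0.05, 0 of the 31 members were higher and 0 lower, beside 0.0419% and 0.0168% of all tested features. At an unadjusted p under 0.05, 0 members were higher, beside 1.18% of all features, and 3 were lower, Rrm2b, Ercc5 and Polb, beside 13.3%. Below 0 lay the differences of 27 of 31 members (87.1%), beside 78.5% of all features, and their median was -0.32, beside -0.36. Median-of-ratios scaling moved the median of all features to -0.02 and that of the members to 0.04, and left 13 of 31 members (41.9%) below 0, beside 51.7% of all features, so a difference quoted for a tested member from all 6 libraries is followed by its value relative to the median of all features. Relative to that median, 14 of the 31 members lay below and the others above. In 5 of the 31 members (16.1%) all 3 radiotherapy values lay below every control value, beside 19.3% of all features, and in 0 members all 3 lay above, beside 1.73%. The 5 were Rrm2b, Ercc5, Polb, Nbn and Xrcc6, and Prkdc and Lig4, below the filter, were also lower in all 3. The count of 5 became 21 without radiotherapy replicate 3 (67.7%, beside 58.8% of all features) and 9 without control replicate 3 (29.0%, beside 26.9%). After median-of-ratios scaling Polb and Rrm2b were still lower in all 3 (6.45%, beside 9.95% of all features), while Atr and Lig1 were higher in all 3 (6.45%, beside 6.94%). After quantile normalisation Rrm2b was lower in all 3 (3.23%, beside 11.0%), and Atr, Rad52 and Lig1 were higher (9.68%, beside 7.85%).

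**Figure D2:**
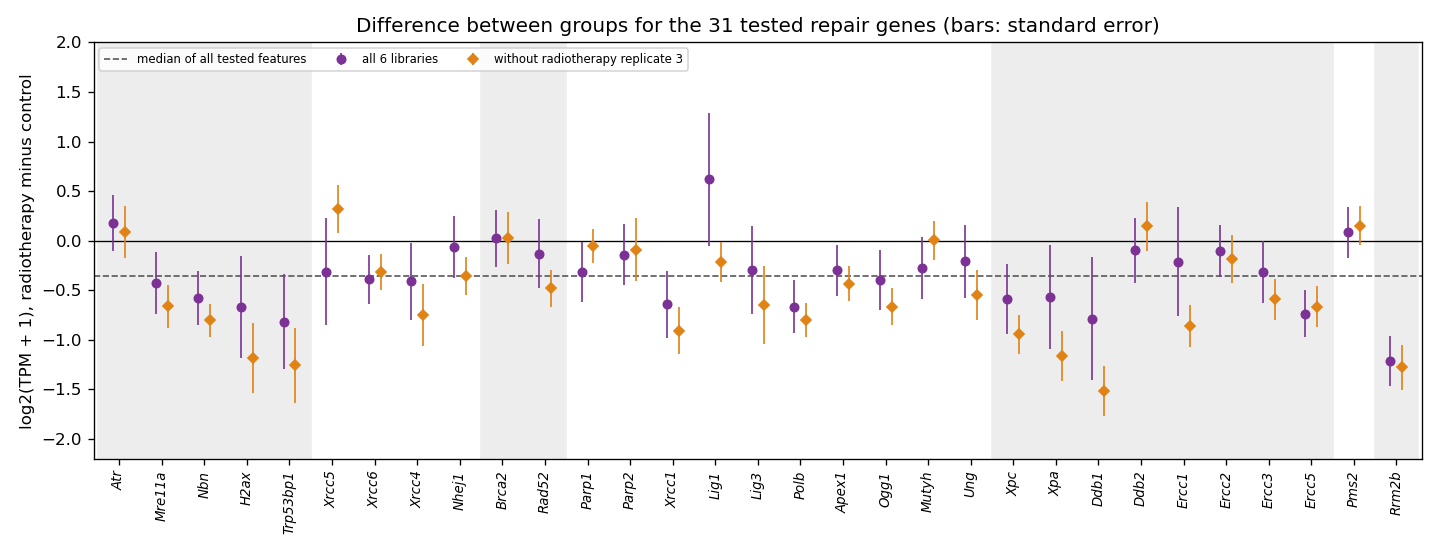
Difference between radiotherapy and control on the log2(TPM + 1) scale with its standard error for the 31 tested repair genes, from all 6 libraries (purple) and without radiotherapy replicate 3 (orange), with the shaded bands marking pathways in the order of the text. The dashed line is the median of all tested features, -0.36 from all 6 libraries, and among the purple points Rrm2b, at -1.21, lies farthest below it. The median without radiotherapy replicate 3, -0.57, is not drawn, and the lowest orange point is Ddb1 at -1.52.

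Promoter sequences from RefSeq (GRCm38.p6, 300 bases around the start of transcription) were at hand for 29 members, in 33 windows, and 3 of the 7 members that were lower in all 3 radiotherapy libraries were among them. Their windows are given because all 3 genes lay on the same side of the controls. Windows were not at hand for Rrm2b, Polb, Nbn, Prkdc, Xpc, Ddb2, H2ax, Rad50 and Ercc3. The windows were searched on both strands for an 8-base E2F motif (TTTCCCGC, TTTGGCGC or TTTCGCGC), for the NRF1 core CGCATGCG and for the half-site bound by p53. Capitals mark a match, which may be on the opposite strand, and lower case is the rest of the window. Xrcc6 lies at chr15:82016119-82016418 on the + strand and holds an E2F match, Lig4 at chr8:9977631-9977930 on the - strand and holds an NRF1 match, and Ercc5 at chr1:44147494-44147793 on the + strand and holds none of the 3 motifs. A second window of Lig4 holds none of them either and is not shown.
Xrcc6: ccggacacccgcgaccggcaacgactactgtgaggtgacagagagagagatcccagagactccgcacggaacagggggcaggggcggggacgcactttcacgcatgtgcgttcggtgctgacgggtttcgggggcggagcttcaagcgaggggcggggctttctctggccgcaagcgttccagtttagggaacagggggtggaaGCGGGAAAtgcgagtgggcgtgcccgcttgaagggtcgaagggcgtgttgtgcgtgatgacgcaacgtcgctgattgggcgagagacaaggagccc
Lig4: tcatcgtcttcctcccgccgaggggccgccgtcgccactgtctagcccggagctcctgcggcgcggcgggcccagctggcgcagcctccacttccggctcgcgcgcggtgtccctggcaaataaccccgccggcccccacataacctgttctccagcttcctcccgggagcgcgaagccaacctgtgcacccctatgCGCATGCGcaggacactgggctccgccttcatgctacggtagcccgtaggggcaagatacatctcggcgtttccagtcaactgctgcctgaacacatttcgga
Ercc5: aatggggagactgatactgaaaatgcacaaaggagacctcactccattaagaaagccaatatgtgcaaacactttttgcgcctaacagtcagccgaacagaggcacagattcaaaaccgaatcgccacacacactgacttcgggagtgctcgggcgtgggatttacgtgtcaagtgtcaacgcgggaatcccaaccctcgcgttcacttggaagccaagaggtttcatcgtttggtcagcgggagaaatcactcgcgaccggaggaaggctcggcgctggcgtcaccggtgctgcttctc
The E2F motif occurred in 5 of the 33 member windows (15.2%), those of Brca2, Lig1, Mdc1, Msh6 and Xrcc6, against 3.2% of the 10933 windows of tested genes and 1.8% of all 32851 windows. E2F factors drive genes of DNA synthesis. Of these 5 members Xrcc6 was lower in all 3 radiotherapy libraries, as were 19.3% of all tested features. Its difference was -0.03 relative to all features, and the separation was lost under median-of-ratios scaling and under quantile normalisation. Brca2 and Lig1 overlapped between the groups, while Mdc1 and Msh6 did not pass the filter. The NRF1 core occurred in 2 member windows, of Lig4 and Xpa (6.1%), against 3.9% for tested genes and 1.9% for all windows. A p53 half-site occurred in 0 of the 33, against 7.0% for tested genes and 8.4% for all windows. The 33 windows leave out Rrm2b, Xpc and Ddb2, which are described below as p53-inducible or as p53 targets, so the count says nothing of them. The members' windows had a median GC content of 60.0% and 22 CpG dinucleotides, against 60.7% and 20 for tested genes. A match describes these letters only and says nothing of binding.

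Among the 8 damage sensors and signalling genes, 5 passed the filter and 0 of these passed the test, with a median difference of -0.58, or -0.22 relative to all features. Nbn, the subunit that carries the Mre11 complex to a break and binds ATM, had 3.66, 3.96 and 6.71 TPM in radiotherapy replicates 1, 2 and 3, against 7.54, 7.27 and 7.37 TPM in control replicates 1, 2 and 3, and the values of other members keep this replicate order. The 3 controls were nearly alike and lay above every radiotherapy value, with a limma difference of -0.58 (SE 0.27, adjusted p = 0.377), or -0.22 relative to all features. Without radiotherapy replicate 3 the difference was -0.80 with a limma adjusted p = 0.024, or -0.24 relative to all features. In that setting 27.6% of all features were called lower. Its partners did not share the separation. Mre11a, the nuclease of the complex, was at 0.88, 0.64 and 1.86 TPM in radiotherapy and at 2.09, 1.90 and 1.40 TPM in control muscle, and Rad50, the ATPase that bridges the ends, was at 0.47, 0.96 and 0.98 TPM against 0.99, 0.77 and 0.81 TPM in control.

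Trp53bp1 encodes 53BP1, which is recruited to chromatin at a break and steers it towards end joining. It had 1.25, 2.82 and 6.34 TPM in the radiotherapy libraries, against 8.40, 6.64 and 3.78 TPM in the controls. The groups overlapped through radiotherapy replicate 3 and control replicate 3, and the difference of -0.82 (SE 0.48), or -0.46 relative to all features, had a limma adjusted p = 0.434. H2ax, the histone variant phosphorylated around breaks, had 4.65, 3.95 and 14.4 TPM in the radiotherapy libraries, against 9.60, 17.7 and 7.70 TPM in the controls, so radiotherapy replicates 1 and 2 lay below every control and replicate 3 did not. Mdc1, which binds phosphorylated H2AX, was at 0.43, 0.31 and 1.13 TPM in radiotherapy against 1.31, 0.96 and 1.24 TPM in control. Its radiotherapy replicates 1 and 2 also lay below every control, and replicate 3 did not. Of the apex kinases, Atr had 1.30, 1.90 and 2.10 TPM in the radiotherapy libraries and 1.65, 0.93 and 1.80 TPM in the controls, and its difference of 0.18 (SE 0.28, limma adjusted p = 0.761) lay 0.54 above the median of all features. Atm had 0.47, 0.09 and 0.07 TPM in the radiotherapy libraries and 1.70, 0.47 and 0.49 TPM in the controls, with the highest radiotherapy value equal to the lowest control value.

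Non-homologous end joining was represented by 6 genes, of which 4 passed the filter and 0 the test, with a median difference of -0.35, close to that of all features. Prkdc, the DNA-PK catalytic subunit that is mutated in both groups, had 0.27, 0.31 and 0.19 TPM in the radiotherapy libraries, against 0.47, 0.42 and 0.50 TPM in the controls. It was lower in all 3 radiotherapy libraries, at levels under the 1 TPM filter, and without a filter the limma difference was -0.22 with an adjusted p = 0.573. Lig4, the ligase that seals the joined ends, was also separated, at 0.30, 0.46 and 0.56 TPM in radiotherapy against 1.17, 0.68 and 0.76 TPM in control muscle. Both genes averaged under the filter and were left out of the main test.

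The 2 subunits of Ku, the ring that first binds a broken end, did not have the same order across libraries. Xrcc6, encoding Ku70, had 13.1, 16.8 and 12.6 TPM in the radiotherapy libraries, against 19.1, 18.9 and 18.2 TPM in the controls, lower in all 3. Its difference of -0.39 (SE 0.25, limma adjusted p = 0.456) was -0.03 relative to all features, and it was 0.02 after median-of-ratios scaling. Xrcc5, encoding Ku80, had 5.61, 6.11 and 0.85 TPM in the radiotherapy libraries and 5.25, 3.26 and 5.23 TPM in the controls. Radiotherapy replicate 3 was the low one, with every other library at 3.84 times its level or more, and without it the difference of -0.31, or 0.05 relative to all features, became 0.32, or 0.89 relative to all features. Xrcc4, the scaffold of Lig4, was at 1.81, 4.41 and 6.86 TPM in radiotherapy and 5.10, 5.74 and 5.83 TPM in control muscle. Nhej1, which encodes XLF and aligns the ends with Xrcc4, was at 3.04, 3.21 and 6.57 TPM in radiotherapy and 3.64, 4.51 and 4.76 TPM in control muscle. For both, radiotherapy replicates 1 and 2 lay below every control and replicate 3 above.

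The groups overlapped for all 3 recombination genes among the members. Brca2, which acts in strand exchange, had 0.82, 1.50 and 1.12 TPM in the radiotherapy libraries and 0.87, 0.92 and 1.54 TPM in the controls. Brca1, which promotes the resection of ends, was listed at 0 or near it, with 0 to 0.05 TPM in radiotherapy and 0 to 0.24 TPM in control muscle. Rad52, a strand-annealing protein, was more abundant than either at 7.05, 5.92 and 14.4 TPM in radiotherapy, against 10.5, 8.66 and 9.13 TPM in control muscle. Radiotherapy replicates 1 and 2 were the 2 lowest and replicate 3 the highest of the 6 libraries, and the difference of -0.13 (SE 0.35, limma adjusted p = 0.858), or 0.23 relative to all features, became 0.25 after median-of-ratios scaling. The cycling cell markers, which would accompany replicating cells, summed to 9.60, 10.0 and 26.7 TPM over 17 genes in the radiotherapy libraries and to 14.7, 11.6 and 9.33 TPM in the controls, and 14.1 TPM of the sum in radiotherapy replicate 3 came from Aurka.

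All 10 genes of single-strand break and base excision repair passed the filter and 0 passed the test, with a median difference of -0.30, or 0.06 relative to all features. Polb had 60.6, 57.9 and 78.7 TPM in the radiotherapy libraries, against 115, 93.8 and 104 TPM in the controls. All 3 radiotherapy values lay below every control value, at a mean of 65.7 ± 11.3 TPM against 104 ± 10.7 TPM in control (SD, n = 3 each). The limma difference was -0.67 (SE 0.27, unadjusted p = 0.0396, adjusted p = 0.334), or -0.31 relative to all features. Without radiotherapy replicate 3 it was -0.80 with a limma adjusted p = 0.0245, or -0.23 relative to all features.

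Xrcc1, the scaffold that holds polymerase beta and DNA ligase 3 at a nick, was at 12.6, 9.44 and 19.7 TPM in radiotherapy and 20.6, 26.4 and 17.8 TPM in control muscle. Its groups overlapped through radiotherapy replicate 3, and the difference was -0.64 (SE 0.34, limma adjusted p = 0.399), or -0.28 relative to all features. Lig3 was at 2.42, 1.83 and 5.44 TPM in radiotherapy and 7.06, 2.54 and 3.04 TPM in control muscle, and Apex1, which cuts the backbone at a lost base, at 15.3, 16.5 and 21.3 TPM against 24.0, 22.1 and 19.6 TPM in control. Lig1, the ligase of replication and of long-patch base excision repair, was the member most dominated by 1 library, with 1.36, 1.06 and 11.5 TPM in the radiotherapy libraries and 1.80, 1.34 and 1.56 TPM in the controls. Radiotherapy replicate 3 was 6.41 times the highest of the others, and without it the difference of 0.62 (SE 0.67), or 0.98 relative to all features, was -0.22, or 0.35 relative to all features.

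The glycosylases that remove damaged bases were all low. Ogg1, which removes oxidised guanine, had 2.18, 2.14 and 4.53 TPM in radiotherapy and 3.85, 4.45 and 3.75 TPM in control muscle, and Ung, which removes uracil, had 1.45, 0.96 and 3.47 TPM against 2.20, 2.89 and 1.66 TPM in control. Both had radiotherapy replicates 1 and 2 below every control and replicate 3 above. Mutyh, which removes adenine paired with oxidised guanine, had the reverse outlier, with 2.55, 2.18 and 0.90 TPM in radiotherapy and 2.72, 2.12 and 2.25 TPM in control muscle. The break sensors behaved like Mutyh or showed no order. Parp1, which makes poly(ADP-ribose) at a nick, had 14.2, 11.9 and 7.04 TPM in radiotherapy and 13.0, 13.9 and 13.6 TPM in control muscle, and Parp2 had 9.57, 4.93 and 6.11 TPM against 9.49, 6.56 and 6.55 TPM in control.

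All 8 nucleotide excision genes passed the filter, 0 passed the test, and all 8 differences lay below 0, with a median of -0.44, or -0.08 relative to all features. Under median-of-ratios scaling 4 of the 8 lay below 0. Ercc5, encoding the XPG nuclease that cuts on the 3′ side of the lesion, had 2.91, 2.26 and 2.11 TPM in the radiotherapy libraries, against 5.04, 3.95 and 5.11 TPM in the controls. It was lower in all 3 radiotherapy libraries, at a mean of 2.43 ± 0.425 TPM against 4.70 ± 0.651 TPM in control (SD, n = 3 each). The limma difference was -0.73 (SE 0.24, unadjusted p = 0.0179, adjusted p = 0.306), or -0.37 relative to all features.

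The recognition and cutting factors before it differed mainly between libraries of the radiotherapy group. Ddb1 was at 32.1, 30.0 and 146 TPM in radiotherapy and 99.1, 111 and 67.9 TPM in control muscle, so that radiotherapy replicates 1 and 2 were the lowest and replicate 3 the highest of 6. The difference over all libraries was -0.79 (SE 0.62, limma adjusted p = 0.53), or -0.43 relative to all features. Without radiotherapy replicate 3 it was -1.52 (SE 0.25, limma adjusted p = 0.0156), or -0.95 relative to all features. Xpc, which finds the distorted helix and is a p53 target in human cells, had 1.71, 1.35 and 4.32 TPM in radiotherapy and 4.13, 3.45 and 4.01 TPM in control muscle. Xpa, which verifies the lesion, had 6.23, 6.82 and 24.7 TPM in radiotherapy and 18.7, 18.0 and 11.7 TPM in control muscle. Ercc1 had 20.7, 18.7 and 78.9 TPM in radiotherapy and 35.2, 44.2 and 31.2 TPM in control muscle, with replicate 3 of radiotherapy 1.79 times the highest of the others.

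Ddb2, the damage-binding partner of Ddb1 and another gene known as a p53 target in human cells, did not follow it. It had 2.24, 1.87 and 0.85 TPM in radiotherapy and 2.02, 1.17 and 2.21 TPM in control muscle, with radiotherapy replicate 3 lowest. The level of Ddb1 was 172 times that of Ddb2 in radiotherapy replicate 3, against 14.3 and 16.0 times in radiotherapy replicates 1 and 2 and 30.7 to 95.1 times in the controls. The TFIIH helicases that open the helix lay closer together. Ercc2 had 3.97, 3.92 and 4.86 TPM in radiotherapy and 6.23, 4.05 and 3.84 TPM in control muscle. Ercc3 had 4.19, 3.51 and 7.56 TPM in radiotherapy and 6.50, 7.17 and 5.31 TPM in control muscle.

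Of the mismatch repair genes, Msh6, which recognises base mismatches, was below the filter at 0.47, 0.57 and 1.23 TPM in radiotherapy and 1.05, 0.73 and 1.12 TPM in control muscle. Pms2, the nicking subunit, was nearly level at 1.36, 1.21 and 0.98 TPM in radiotherapy and 1.20, 1.02 and 0.95 TPM in control muscle. The difference for Pms2 was 0.08 (SE 0.26, limma adjusted p = 0.878), or 0.44 relative to all features.

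Rrm2b had the largest difference between the groups on the log2(TPM + 1) scale among the 31 tested members. This p53-inducible small subunit of ribonucleotide reductase supplies deoxynucleotides in cells that do not divide. It had 1.87, 1.61 and 2.12 TPM in the radiotherapy libraries, against 6.08, 4.37 and 6.68 TPM in the controls. The 3 radiotherapy values lay close together and the lowest control was above all of them, at a mean of 1.87 ± 0.255 TPM against 5.71 ± 1.20 TPM in control (SD, n = 3 each), a control mean 3.06 times the radiotherapy mean. The limma difference was -1.21 (SE 0.25, unadjusted p = 0.00184, adjusted p = 0.238), or -0.85 relative to all features, and the adjusted p ranged from 0.0183 without radiotherapy replicate 3 to 0.756 over the alternatives. After median-of-ratios scaling it was -0.89 (limma adjusted p = 0.291). Its radiotherapy values lay below every control value under each alternative in which it was tested, and the filter of at least 5 TPM left it out. Among the 31 tested members it was the only one lower in all 3 radiotherapy libraries under median-of-ratios scaling and quantile normalisation alike, and its level in radiotherapy replicate 3 stayed beside those of replicates 1 and 2.

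Most other members split the radiotherapy group instead of following it. In 21 of the 31 tested members (67.7%) radiotherapy replicates 1 and 2 both lay below every control, beside 58.8% of all features. In 16 of these replicate 3 did not lie below every control (51.6% of members, beside 39.5%). Replicate 3 was the highest of all 6 libraries in 12 members (38.7%, beside 30.0%), and in 10 it was highest while replicates 1 and 2 lay below every control (32.3%, beside 19.3%). Those 10 were Xrcc4, Nhej1, Rad52, Ogg1, Ung, Xpc, Xpa, Ddb1, Ercc1 and Ercc3. It was the lowest of 6 in 6 members, Xrcc5, Xrcc6, Parp1, Mutyh, Ddb2 and Ercc5 (19.4%, beside 14.7%). The median ratio to the control mean over the tested members was 0.644, 0.555 and 1.03 in radiotherapy replicates 1, 2 and 3, and over all tested features it was 0.613, 0.568 and 0.967. The members' ratios thus lay close to those of the whole table in each library.

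**Figure D3:**
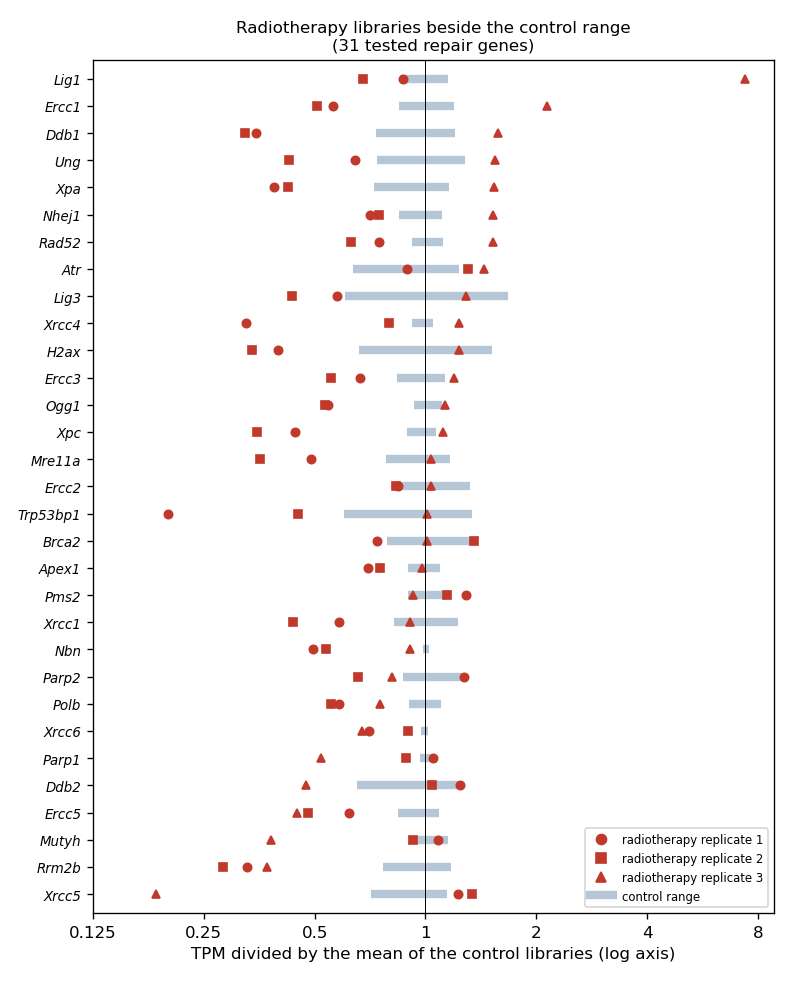
TPM of the 3 radiotherapy libraries divided by the mean of the control libraries (log axis) for the 31 tested repair genes, ordered by replicate 3, with the light blue bar spanning the 3 controls. Replicate 3 (triangles) runs from 7.37 for Lig1 to 0.186 for Xrcc5, while replicates 1 and 2 mostly lie together on the left, and Rrm2b, Ercc5, Polb, Xrcc6 and Nbn have all 3 symbols left of the bar.

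Without radiotherapy replicate 3, limma called 9 of the 31 members lower at an adjusted p under 0.05 and 0 higher, beside 27.6% and 1.98% of all features. The 9 were Nbn, Xrcc1, Polb, Ogg1, Xpc, Xpa, Ddb1, Ercc1 and Rrm2b, so 4 of the 8 nucleotide excision genes and 3 of the 10 base excision genes were among them. Their limma differences ran from -0.66 for Ogg1 (adjusted p = 0.0441) to -1.52 for Ddb1. The median over the members was then -0.59, beside -0.57 over all features, so the members' share of calls and their median lay near those of the table. Their largest shift relative to all features was -0.95, for Ddb1, and that of Rrm2b was -0.71. This comparison rests on 2 radiotherapy libraries that are more alike than any control pair, with correlations of 0.968 against at most 0.950.

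The rest of the repair machinery was measured with 150 further genes, of which 106 passed the filter. Of these 0 passed the limma test, 18 were lower and 1 higher at an unadjusted p under 0.05, beside 13.3% and 1.18% of all features. Lower in all 3 radiotherapy libraries were 30 of 106 (28.3%), beside 19.3% of all features. Higher in all 3 were 2 (1.9%, beside 1.73%), Pold1 and Rfc3, named after their values were seen. The median difference of the 106 was -0.41, or -0.05 relative to all features. Without radiotherapy replicate 3, 26 of the 106 were lower and 3 higher at a limma adjusted p under 0.05, beside 27.6% and 1.98% of all features. The one with the smallest p was Pold2, a subunit of the replicative and repair polymerase delta, at 9.33, 5.94 and 14.4 TPM in radiotherapy, against 31.9, 39.7 and 29.5 TPM in control muscle. Its limma difference was -1.73 (SE 0.35, adjusted p = 0.238), or -1.375 relative to all features, and -1.34 after median-of-ratios scaling. The level of Pold2 was lower in 3 of 3 radiotherapy libraries. Pold1, the catalytic subunit of the same polymerase, lay the other way at 5.97, 3.69 and 3.27 TPM in radiotherapy, against 2.56, 2.10 and 2.61 TPM in control muscle.

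Parp3, a poly(ADP-ribose) polymerase that acts in end joining, had 18.7, 16.4 and 19.0 TPM in the radiotherapy libraries, against 40.7, 34.5 and 34.0 TPM in the controls. The limma difference was -0.97 (SE 0.25, adjusted p = 0.269), or -0.61 relative to all features. Like Rrm2b, Parp3 had nearly the same level in all 3 radiotherapy libraries. The same held for Rpa1, the large subunit of the protein that coats single-stranded DNA, at 13.3, 13.0 and 12.7 TPM against 24.1, 25.4 and 18.0 TPM in control. Ube2b, the ubiquitin-conjugating enzyme RAD6B that starts damage bypass, was the most abundant named gene, at 226, 238 and 534 TPM in radiotherapy, against 717, 721 and 667 TPM in control muscle. Its limma difference was -1.19 (SE 0.37, adjusted p = 0.301), or -0.83 relative to all features. Cul4a, the ligase scaffold that Ddb1 binds, was at 15.0, 12.6 and 23.0 TPM in radiotherapy against 36.1, 32.1 and 28.9 TPM in control muscle. It was lower in all 3 radiotherapy libraries, although Ddb1 was not.

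Further genes with the smallest p of their pathway were Ppm1d, the phosphatase that switches the damage response off and a p53 target, at 0.95, 1.52 and 2.61 TPM in radiotherapy and 3.34, 3.71 and 3.75 TPM in control muscle. Slx4, a scaffold for nucleases that resolve joint molecules, was at 1.10, 1.22 and 2.26 TPM in radiotherapy and 3.29, 4.31 and 2.95 TPM in control muscle. Both were lower in all 3 radiotherapy libraries, as were Rad1, Tdp2, Polk, Dguok and Mlh3. From Rad1 to Mlh3 in this list, limma differences ran from -0.84 for Tdp2 to -0.50 for Mlh3. Relative to all features these were -0.48 for Tdp2 and -0.14 for Mlh3. Usp1 overlapped between the groups. Dut, the enzyme that keeps uracil out of DNA by hydrolysing dUTP, lay higher with 4.48, 3.77 and 2.14 TPM in radiotherapy and 1.32, 1.10 and 2.25 TPM in control muscle. Its limma difference was 0.79 (SE 0.32, adjusted p = 0.335), or 1.15 relative to all features. Faap100, of the Fanconi anaemia core complex, was at 9.13, 11.5 and 2.76 TPM in radiotherapy and 2.96, 4.10 and 4.08 TPM in control muscle. In Dut and Faap100 radiotherapy replicates 1 and 2 lay above every control and replicate 3 did not.

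Several repair genes share their start region with another gene. In the GENCODE M21 annotation, 10 of the 38 members (26.3%) have a protein-coding neighbour on the opposite strand that starts within 1000 bases and runs the other way, against 6.8% of protein-coding genes in the table. Among tested genes the shares were 6 of 31 members (19.4%) and 10.7%. The mean levels over the 6 libraries differed at least 10-fold in 5 of the 10 pairs, and by 1.12 to 3.74 times in the others. Nbr1, an autophagy receptor, was at 13.4, 13.3 and 54.8 TPM in radiotherapy and 36.9, 52.5 and 29.9 TPM in control muscle beside Brca1 near 0, and Aimp2, a scaffold of tRNA synthetases, was at 211, 167 and 68.2 TPM in radiotherapy and 117, 139 and 122 TPM in control muscle beside Pms2 at about 1 TPM. Osgep, a tRNA-modifying enzyme that starts beside Apex1, was at 54.5, 48.3 and 63.4 TPM in radiotherapy, against 93.3, 99.7 and 84.5 TPM in control muscle. It was lower in all 3 radiotherapy libraries, while Apex1 was not. The limma difference of Osgep was -0.73 (adjusted p = 0.318), beside a median of -0.36 over all features. Mcm4, a helicase subunit that starts beside Prkdc, was at 0.48, 0.61 and 1.56 TPM in radiotherapy and 1.76, 2.17 and 1.27 TPM in control muscle. Abhd13 beside Lig4, Npat beside Atm, Toe1 beside Mutyh and Lsm3 beside Xpc are in the plot of neighbours, and Ccnb1ip1 beside Parp2 and Pinlyp beside Xrcc1 stayed at or under 0.15 TPM.

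**Figure D4:**
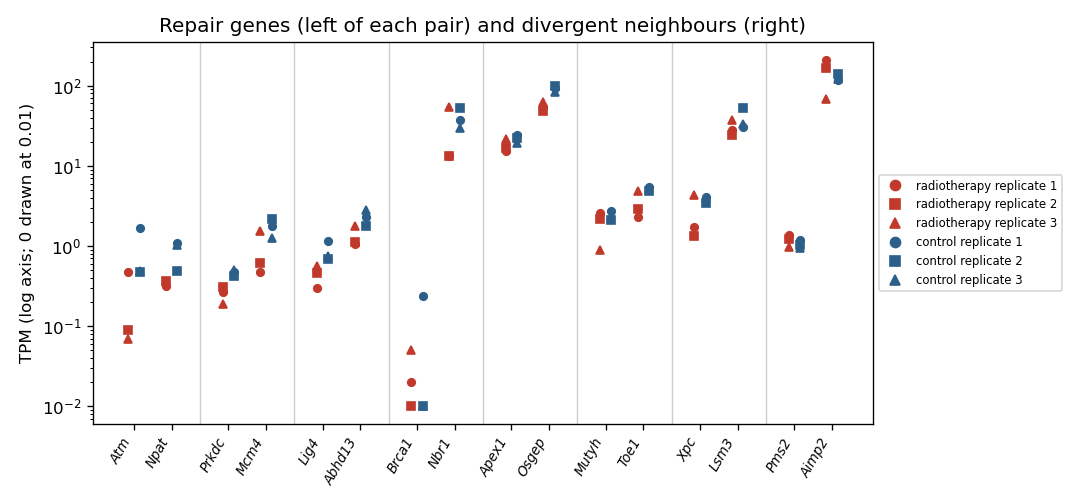
TPM (log axis, 0 drawn at 0.01) of 8 repair genes and of the divergent neighbour to the right of each, in the 3 radiotherapy (red) and 3 control (blue) libraries, with 1 symbol per replicate. Nbr1 and Aimp2 lie far above Brca1 and Pms2, and all 3 radiotherapy values of Osgep lie below its control values.

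Exons of 14 members overlap a gene on the opposite strand that exceeded 1 TPM in some library, and the sources used here do not state whether reads were counted by strand, so reads from the shared stretch cannot be told apart. The largest overlaps were those of Apex1 with Pip4p1 (61.7% of the exon bases of Apex1), Lig3 with Rffl (25.1%), Ddb2 with Acp2 (23.8%), Ercc2 with Klc3 (17.8%), Trp53bp1 with Tubgcp4 (15.0%) and Ogg1 with Camk1 (10.6%). Pip4p1 was at 7.05, 6.93 and 29.6 TPM in radiotherapy and 16.7, 10.5 and 13.6 TPM in control muscle, so it was highest in radiotherapy replicate 3, where Apex1 was not. The overlaps of Xrcc6, Lig1, Ddb1, Xpa, Ercc1, Mre11a, Xrcc4 and Msh6 ran from 0.8% to 7.7%. Nbn, Polb, Ercc5 and Rrm2b had no such overlap.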

How the data were processed

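Total RNA of 3 radiotherapy and 3 control gastrocnemius samples was sequenced after TruSeq library preparation, per the labels' protocols. The values are TPM, made by the authors and deposited as 1 table. Per the submitters' processing notes, HISAT2, StringTie and RSEM were used, their versions and roles not being given, with the build mm9. The annotation release and any strand setting are not given in the sources used here. TPM sums to the same total in each library, and without counts the depth is unknown, so neither count tests nor detection limits were possible. The labels give the groups, and 0 columns belonged to other samples.

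The 38 members and all gene lists were chosen with earlier results of these data known, and no list was tested as a set. The 11938 of 55995 features that averaged at least 1 TPM over the 6 libraries were fitted as log2(TPM + 1) with limma 3.58.1 in R 4.3.3 (empirical Bayes with a trend, 2 groups, no covariates, two-sided), with Benjamini-Hochberg adjustment over all of them and a threshold of 0.05. The fit was also run on simulated data with independent noise, without the shared shift or the outlying library seen here. No result rests on it. Values per library were planned for members with the smallest p of their pathway, with separated groups or with 1 library far outside the others, and for 6 members picked by name. The remaining members were then given too, Brca1 by its range. Other repair genes were named by the smallest p of each list, some of which are not reported here. Results were recomputed with other pseudocounts (0.1 and 0.5), with a filter of 5 TPM or none, with median-of-ratios scaling or quantile normalisation, with robust empirical Bayes, with a replicate block, and with each library left out once. Promoter windows came from RefSeq (GRCm38.p6), and neighbours and exon overlaps from GENCODE M21, a newer build than mm9, so no gene coordinates from it are given. Figures were drawn with matplotlib 3.10.9.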

Additional observations from a re-analysis of the deposited data

How the results depend on the processing

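Over 14 alternatives the 49 named genes gave 659 log2 differences, of which 592 kept their direction and their side of the threshold, 21 passed it only without radiotherapy replicate 3, and 46 changed sign, none of them past the threshold. The number of features past the limma threshold over the whole table was 5 higher and 2 lower. It was 0 higher and 0 lower without a filter, 3 and 1 under median-of-ratios scaling and under quantile normalisation, 5 lower with a pseudocount of 0.1 and 1 lower with the filter at 5 TPM. Leaving out 1 library gave 0 to 236 higher and 0 to 3298 lower, with both high counts without radiotherapy replicate 3. Without radiotherapy replicates 1 and 2 in turn the counts were 3 and 8 higher and 0 and 1 lower, and without control replicates 1, 2 and 3 they were 0, 1 and 0 higher and 4, 12 and 1 lower. Repair members past the threshold numbered 0, and 0 to 9 with 1 library left out, and the other repair genes 0, and 0 to 29, again without radiotherapy replicate 3. Members lower in all radiotherapy libraries numbered 5 (16.1%, beside 19.3% of all features). They numbered 3 with the filter at 5 TPM (23.1%, beside 20.2%), 7 without a filter (18.4%, beside 11.2%), 2 under median-of-ratios scaling (6.45%, beside 9.95%) and 1 under quantile normalisation (3.23%, beside 11.0%). With 1 library left out they numbered 5 to 21, with 21 without radiotherapy replicate 3 (67.7%, beside 58.8%), 9 without control replicate 3 (29.0%, beside 26.9%), and 5 or 7 otherwise (16.1% or 22.6%, beside 20.7% to 29.3%). Members higher in all numbered 0, against 2 under median-of-ratios scaling (6.45%, beside 6.94%), 3 under quantile normalisation (9.68%, beside 7.85%) and 0 to 2 with 1 library left out (at most 6.45%, beside 2.33% to 6.17%). The members' median minus that of all features was 0.04, and -0.26 without a filter, where more of the low features of the table were included.

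Deviations from the group mean in samples with the same replicate number correlated at -0.04, -0.11 and -0.20 for numbers 1, 2 and 3. Between different numbers the correlations ran from -0.09 to 0.18. With 3 libraries a side, such values cannot show whether the number marks a pair or a batch. With the replicate number as a block, 4 features were higher, 0 lower and 0 members past the threshold.

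Under median-of-ratios scaling the log2 differences that changed sign were 0.079 for Xrcc5, 0.017 for Xrcc6, 0.27 for Nhej1, 0.25 for Rad52, 0.087 for Parp1, 0.24 for Parp2, 0.022 for Lig3, 0.11 for Apex1, 0.052 for Mutyh, 0.043 for Ung, 0.20 for Ddb2, 0.20 for Ercc1, 0.25 for Ercc2 and 0.037 for Ercc3. Under quantile normalisation the same genes changed sign, with 0.15 for Xrcc5, 0.027 for Xrcc6, 0.28 for Nhej1, 0.27 for Rad52, 0.12 for Parp1, 0.27 for Parp2, 0.006 for Lig3, 0.11 for Apex1, 0.11 for Mutyh, 0.045 for Ung, 0.25 for Ddb2, 0.20 for Ercc1, 0.27 for Ercc2 and 0.066 for Ercc3. Among the genes that changed sign when 1 library was left out, the differences ranged from -0.65 to 0.32 for Xrcc5, -0.36 to 0.096 for Nhej1, -0.089 to 0.17 for Brca2, -0.48 to 0.096 for Rad52, -0.38 to 0.041 for Parp2, -0.21 to 1.09 for Lig1, -0.65 to 0.068 for Lig3, -0.45 to 0.003 for Mutyh, -0.55 to 0.043 for Ung, -0.27 to 0.14 for Ddb2, -0.86 to 0.15 for Ercc1 and -0.21 to 0.082 for Ercc2. The cause of these shifts was not tested.

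Depth is unknown and each group holds 3 libraries, which limits the precision of every value, most of all for members near 1 TPM.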

Other observations

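Some pairs of repair genes, of the same complex or of related function, kept a similar ratio of TPM levels across libraries and others did not. Nbn was 4.16, 6.19 and 3.61 times Mre11a in radiotherapy replicates 1, 2 and 3, and 3.61, 3.83 and 5.26 times in control replicates 1, 2 and 3. Xrcc6 was 2.34, 2.75 and 14.8 times Xrcc5 in the radiotherapy libraries and 3.63, 5.81 and 3.49 times in the controls, so the high ratio in radiotherapy replicate 3 came with the low level of Xrcc5 there. Polb was 44.6, 54.7 and 6.82 times Lig1 in the radiotherapy libraries and 64.0, 70.0 and 66.7 times in the controls. Parp1 was 1.48, 2.42 and 1.15 times Parp2 in the radiotherapy libraries and 1.37, 2.11 and 2.08 times in the controls. These ratios of 2 levels within a library do not depend on the scaling of the library, and no test was made of them.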
